A study of Mus musculus with 5 samples.

Results

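Basal myoepithelial cells of the mouse mammary gland were taken from single-cell RNA-seq libraries of whole glands as the barcodes in which *Krt14* and *Krt17* together reached at least 8 UMIs (unique molecular identifiers, each 1 captured transcript) per 10000 UMIs. A barcode was left out if *Prlr* and *Cited1*, or *Csn3* and *Spp1*, reached 5 per 10000, if *Col1a1*, *Col1a2*, *Col3a1* and *Dcn* reached 50 per 10000, if it held any UMI of *Ptprc*, or if mitochondrial genes took over 10% of its UMIs. Of 14344 barcodes in 5 libraries, 291 met this rule. The members were therefore chosen on measured RNA, and the keratin level and the absence of the other genes are conditions of entry, not results.

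All mice were ovariectomized females of the BALB/cj strain, 30 weeks old, and their treatment began 20 weeks after ovariectomy and lasted 1 week. OVX mice received the DMSO vehicle. OVX_E2 mice received 1 µg of 17β-estradiol (E2) per animal by daily intraperitoneal injection. OVX_E2_P4 mice received E2 with 0.1 mg of progesterone (P4) per animal. OVX_E2_PBDE and OVX_E2_P4_PBDE mice received the same hormones with food that carried polybrominated diphenyl ethers (PBDEs), flame retardants, as BDE-47 at 7.1, BDE-100 at 0.4 and BDE-153 at 0.9 mg/kg, and the other groups ate matched food with DMSO. Each group gave 1 library from about 4000 loaded cells, with no sort for epithelium and with dead cells removed, and the number of mice behind a library is not given in the sources used here. With 1 library per group no comparison below has a replicate check, no test was possible, and intervals are 95% intervals for counting error only. The deposited files carry a running number for each library that is consecutive for the pair of PBDE libraries and, apart from these, for the other 3. The sources used here do not say what it marks, so whatever goes with it and PBDEs cannot be told apart.

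Myoepithelial cells form the outer layer of mammary ducts and alveoli, between the luminal cells and the basement membrane. They carry keratins of basal epithelium together with a smooth muscle type contractile apparatus, and they squeeze milk toward the nipple when oxytocin binds its receptor. The transcription factor p63, from *Trp63*, maintains basal identity. Most basal cells lack the estrogen and progesterone receptors and are known to receive hormone signals through factors released by hormone-sensing luminal cells.

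The label matched the markers that the rule did not use. Averaged over the 5 libraries, *Acta2*, smooth muscle actin, had 6772 UMIs per 1000000 (CPM) in members, against 29.5 in the *Prlr* and *Cited1* barcodes (hormone-sensing luminal gate), 36.1 in the *Csn3* and *Spp1* barcodes (alveolar luminal gate) and 21.1 in the collagen and *Dcn* barcodes (fibroblast gate). *Krt5* had 493 CPM in members against 4.14, 3.70 and 2.31 in the same classes. *Cnn1*, calponin, had 859 against 4.91, 5.88 and 3.49 CPM, *Myh11*, smooth muscle myosin heavy chain, 555 against 2.90, 3.10 and 2.35 CPM, and *Trp63* 89.8 against 0.572, 0.550 and 0.508 CPM. *Krt18*, a luminal keratin, went the other way, with 415 CPM in members against 4893 and 5232 in the luminal gates. *Cdh5* of endothelium and *Adipoq* and *Cidec* of fat had 0 UMIs in all members.

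**Figure D1:**
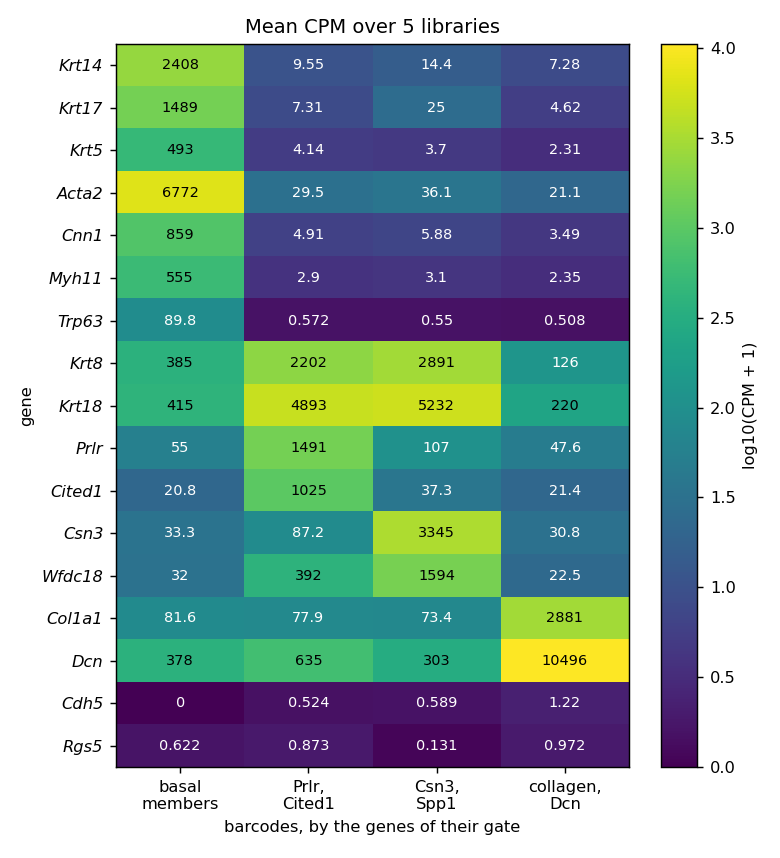
Mean level over the 5 libraries of marker genes (rows), in CPM on a log color scale, in the basal members and in 3 other gated classes (columns). *Acta2* stands at 6772 CPM in members and at 21.1 to 36.1 CPM in the other classes, while *Krt18* is at 415 CPM in members and at 4893 and 5232 CPM in the luminal classes.

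Besides the 7 markers, the genes with the largest mean ratio of members to all other barcodes included *Col17a1*, a hemidesmosome collagen (86.1-fold), *Tagln*, transgelin (83.7-fold), *Actg2*, an enteric smooth muscle actin (82.9-fold), *Tpm2*, a tropomyosin (69.5-fold), *Il17b*, a cytokine (67.8-fold), *Dll1*, a Notch ligand (61.4-fold), *Mylk*, the kinase that starts myosin contraction (49.7-fold), and *Oxtr*, the oxytocin receptor (43.0-fold). These folds describe barcodes chosen on keratins and carry no test. *Acta2* lies at chr19:34241090-34255590 on the minus strand and *Krt5* at chr15:101707070-101712898 on the minus strand (GENCODE M21, GRCm38).

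Depth and foreign RNA differed between the libraries. In the library order OVX, OVX_E2, OVX_E2_PBDE, OVX_E2_P4, OVX_E2_P4_PBDE, kept for every series of 5 values below, median UMIs per member were 5659, 9961, 9751, 8290.5 and 7277. The summed UMIs of the members were 321736, 601101, 590319, 1058533 and 384031. All 6 fibroblast markers had UMIs in members, with *Dcn* the most abundant, and summed to 1647, 624, 710, 652 and 779 CPM, so OVX members stood above the rest even though the rule caps 4 of the 6. In OVX 40 of 49 members held at least 10 collagen and *Dcn* UMIs per 10000, against 4 of 50, 4 of 52, 8 of 106 and 3 of 34 in the order OVX_E2, OVX_E2_PBDE, OVX_E2_P4 and OVX_E2_P4_PBDE. Collagen and *Dcn* barcodes made up 81.0% of the OVX library and 27.5% to 53.7% of the other libraries. The 6 luminal markers, led by *Krt18*, summed to 1315, 1090, 1013, 1420 and 1247 CPM. The hematopoietic list, led by *Lyz2*, summed to 40.4, 18.3, 13.6, 19.8 and 41.7 CPM, with *Ptprc* at 0 by the rule. The endothelial list was at most 5.21 CPM, and the 7 pericyte genes, led by *Pdgfrb*, had 44 UMIs over all members. The epidermal list, led by *Krt10*, had 55.9, 23.3, 54.2, 51.0 and 44.3 CPM with *Ivl* and *Krt6b* at 0. In OVX_E2, 69 of the 74 Schwann marker UMIs of the members lay in 1 barcode. Pairs of libraries shared 3 to 15 barcode sequences, and no member barcode was shared.

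Basal members made up a small share of every library, and the highest share was that of OVX_E2_P4. OVX held 49 of 3109 barcodes (1.58%, exact Clopper-Pearson interval 1.17–2.08), and OVX_E2 50 of 2233 (2.24%, 1.67–2.94). OVX_E2_PBDE held 52 of 3536 (1.47%, 1.10–1.92), OVX_E2_P4 106 of 3107 (3.41%, 2.80–4.11) and OVX_E2_P4_PBDE 34 of 2359 (1.44%, 1.00–2.01). The OVX_E2_P4 interval lay above those of OVX and both PBDE libraries and overlapped that of OVX_E2. With a mitochondrial limit of 5%, which 57 of the 106 OVX_E2_P4 members exceed, its share was 1.58% and that of OVX_E2 1.70%, so the order of these libraries was not kept. Without the members that hold at least 10 *Krt8* and *Krt18* UMIs per 10000 the OVX_E2_P4 share was 2.06% and that of OVX_E2 1.70%.

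The denominator decided where OVX stood. Among barcodes in the 3 epithelial gates (basal, *Prlr* and *Cited1*, *Csn3* and *Spp1*), members were 28.7% of 171 (22.0–36.1) in OVX. They were 6.46% of 774 (4.83–8.43) in OVX_E2, 5.95% of 874 (4.48–7.73) in OVX_E2_PBDE, 7.84% of 1352 (6.46–9.40) in OVX_E2_P4 and 4.05% of 840 (2.82–5.61) in OVX_E2_P4_PBDE. The *Prlr* and *Cited1* gate took at least 5 UMIs per 10000 of its genes, with *Csn3* and *Spp1* below 5. The *Csn3* and *Spp1* gate took at least 20, with *Prlr* and *Cited1* below 5. Barcodes that reached 5 for both pairs, or from 5 to below 20 for *Csn3* and *Spp1*, were in neither gate. Thus the OVX share was the highest of these gated barcodes, not of all epithelium, and the middle one of the 5 over all barcodes. The part of the ungated luminal barcodes was not tested. Cells recovered from a dissociated gland need not have the proportions of the gland.

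**Figure D2:**
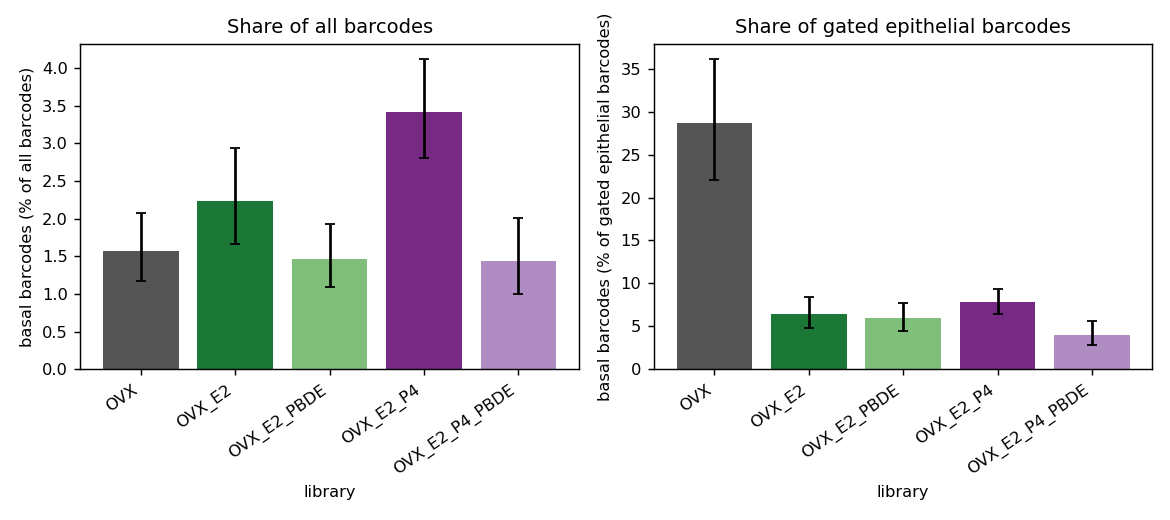
Basal members as a percent of all barcodes and as a percent of barcodes in the 3 epithelial gates, by library, with exact 95% intervals that cover counting error only. OVX_E2_P4 is highest of all barcodes at 3.41%, and OVX is highest of the barcodes in the epithelial gates at 28.7%.

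At the edge of the rule, the lowest member of each library had 8.04 to 9.71 UMIs of *Krt14* and *Krt17* per 10000. The highest barcode below the keratin limit had 5.49 to 7.94. Of 365 barcodes that reached this limit, 74 were left out by the other limits of the rule. All 291 members held another basal gene.

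The estradiol comparison, OVX_E2 over OVX, asked what E2 replacement changed in basal cells. Estradiol was accompanied by transcripts of *Igfbp2* and *Krt15*, of which no UMI was seen in any OVX member, and by lower levels of *Ctgf*, *Slpi*, *Cxcl14* and the heat shock genes *Hspa1a* and *Hspa1b*. Of 2185 genes whose UMIs in the pair of libraries summed to 50 or more, 243 were past 2-fold (11.1%, with 1 UMI added to each sum), 73 higher (3.34%) and 170 lower (7.78%). The balance of the directions followed the scaling: it was 96 higher and 134 lower when libraries were scaled by the median ratio, and 124 higher and 102 lower without mitochondrial and ribosomal protein genes. Ribosomal proteins took 23.2%, 32.2%, 34.8%, 33.4% and 35.9% of the members' UMIs. In collagen and *Dcn* barcodes the same share was 19.3% in OVX and 21.1% in OVX_E2. The part of the fibroblast RNA, the depth and the ribosomal share in this comparison was not tested.

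*Igfbp2*, a secreted binding protein for insulin-like growth factors (chr1:72824503-72852474, plus strand), had 0, 163, 144, 239 and 120 CPM. In OVX_E2_P4_PBDE 1 barcode held 54.3% of its UMIs. Against a floor of 3 UMIs in the OVX library it was at least 17.5-fold higher in OVX_E2, and the exact interval of the ratio began at 14.0. *Krt15*, a keratin of basal epithelium (chr11:100131758-100135928, minus strand), had 0, 125, 112, 192 and 41.7 CPM and was at least 13.4-fold higher in OVX_E2 against the same floor, with an interval that began at 10.6. All 4 estradiol libraries were thus above OVX for both genes. After each member was thinned to 3000 UMIs, *Krt15* was seen in 0 of 49 OVX members (0–7.25%), 10 of 50, 13 of 52, 23 of 106 and 4 of 34, and *Igfbp2* in 0 of 49, 11 of 50, 12 of 52, 30 of 106 and 5 of 34. Without thinning, *Krt15* was seen in 0, 20, 23, 50 and 7 members and *Igfbp2* in 0, 21, 24, 47 and 11. Both genes lay in the same thinned member in 2, 4, 7 and 1 cases. In thinned collagen and *Dcn* barcodes, where little *Krt15* should be present, its share was 0.119%, 0.218%, 0.263%, 1.05% and 0%, while that of *Igfbp2* was 0.834%, 5.01%, 5.47%, 8.43% and 3.41%. The OVX_E2 to OVX ratio of *Igfbp2* was 2.61 in *Prlr* and *Cited1* barcodes and 10.7 in collagen and *Dcn* barcodes, so this gene was higher outside the basal layer too. For *Krt15* these ratios were 0.49 and 3.26.

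Other genes higher in OVX_E2 had a nonzero OVX level. *Lmo1*, a LIM domain transcription cofactor, had 71.5, 318, 230, 287 and 174 CPM (4.28-fold in OVX_E2, 2.88–7.18). *Lgals7*, a galectin of stratified epithelium, had 190, 614, 649, 745 and 542 CPM (3.19-fold, 2.46–4.32). *Emid1*, an extracellular matrix protein, had 21.8, 125, 166, 136 and 78.1 CPM (5.08-fold, 2.65–14.8). Each of these genes was lower in OVX than in any of the 4 estradiol libraries. In *Prlr* and *Cited1* and in collagen and *Dcn* barcodes the OVX_E2 to OVX ratio was 1.36 and 0.491 for *Lmo1*. It was 1.81 and 6.86 for *Lgals7* and 4.1 and 11.4 for *Emid1*, so *Lgals7* and *Emid1* were higher outside the members too. *Ramp1*, a partner of the calcitonin receptor-like receptor, had 12.4, 84.8, 84.7, 109 and 75.5 CPM (5.57-fold, 2.51–26.0). *Nkd1*, a Wnt inhibitor and Wnt target, had 3.11, 83.2, 61.0, 40.6 and 70.3 CPM, where the OVX value is 1 UMI, which gives a ratio of 13.6 with a wide interval (4.59–1078). *Dctpp1* (6.42-fold, 2.70–42.1), *2700094K13Rik* (4.71-fold, 2.60–11.7) and *Tmem147* (4.23-fold, 2.32–10.5) completed the named genes besides the proliferation genes *Hist1h2ap* and *2810417H13Rik*.

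Proliferation RNA came from few barcodes. *Hist1h2ap*, a replication histone, had 3.11 CPM in OVX and 131 in OVX_E2, and 49.4% of its OVX_E2 UMIs lay in 1 barcode. Members with at least 2 UMIs of *Mki67*, *Top2a*, *Cdk1*, *Ube2c* and *Ccnb2* numbered 0 of 49 in OVX and 6 of 50, 3 of 52, 14 of 106 and 2 of 34 in the estradiol libraries. These counts were not thinned and OVX members were the shallowest, so the 0 sets no limit on the share of cycling cells. Without these members *Hist1h2ap* was at a ratio of 0.991 and *Hmgb2*, a chromatin protein of dividing cells, at 0.956 in OVX_E2 over OVX, and the genes past 2-fold numbered 169. *2810417H13Rik* had 0 UMIs in OVX and was at least 10.2-fold higher in OVX_E2 against the floor of 3 UMIs, with an interval that began at 8.01. Its ratio with 1 UMI added was 31.0, and 3.97 without the cycling members. Among the 14 proliferation genes, 3 could be compared, and *Hmgb2* and *Stmn1* were past 2-fold higher, against 3.34% of all genes. *Stmn1* was at a ratio of 1.53 without the cycling members and of 1.75 after Scrublet, and the call of *Hmgb2* rested on 1 barcode.

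**Figure D3:**
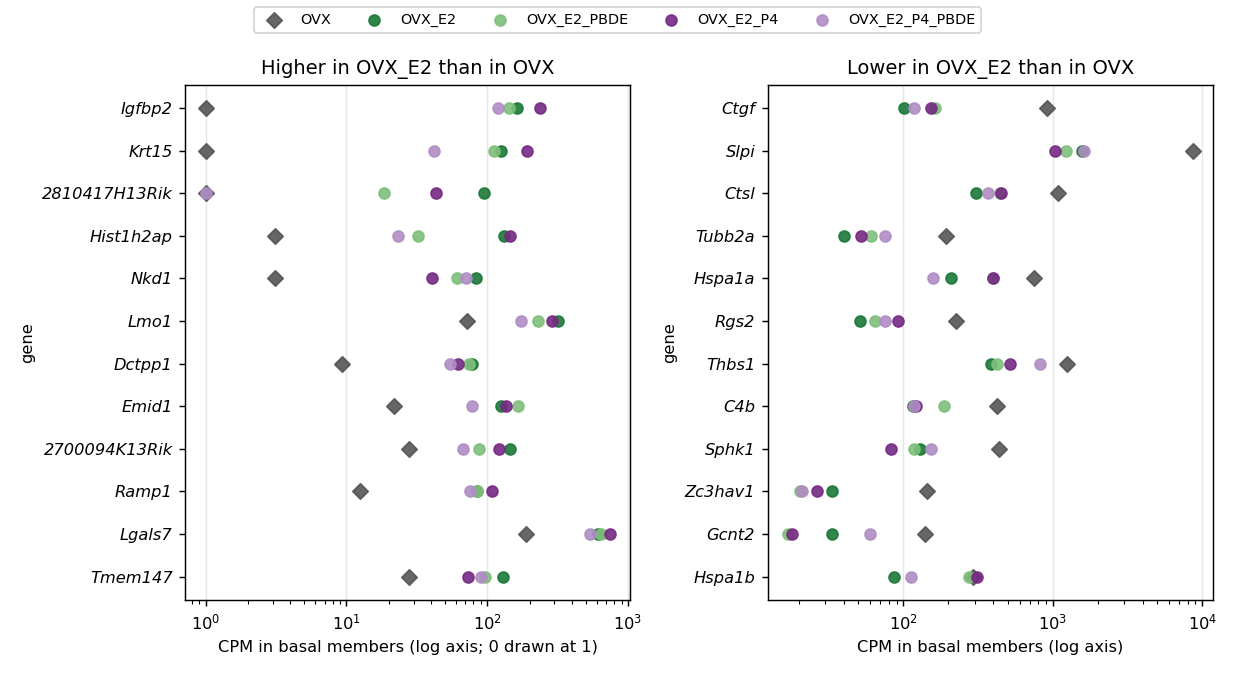
Level in CPM (log axis) of named genes in the basal members of the 5 libraries, with genes higher in OVX_E2 and genes lower in OVX_E2 in separate panels, 1 point per library and a level of 0 drawn at 1. *Igfbp2* and *Krt15* have 0 UMIs in OVX and 163 and 125 CPM in OVX_E2, while *Ctgf* and *Slpi* are at 914 and 8613 CPM in OVX and at 101 and 1574 CPM in OVX_E2.

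Genes lower in OVX_E2 included secreted factors and inhibitors. *Ctgf* (Ccn2), a matrix protein and known target of the Hippo pathway factors YAP and TEAD (chr10:24595442-24598683, plus strand), had 914, 101, 163, 152 and 117 CPM and was 8.89-fold lower in OVX_E2 (6.81–12.1). The 4 estradiol libraries lay between 101 and 163 CPM, all below OVX. In thinned members it was seen in 28 of 49 OVX members (57.1%), 10 of 50, 13 of 52, 26 of 106 and 11 of 34. Its OVX_E2 to OVX ratio was 0.0809 in *Prlr* and *Cited1* barcodes and 1.43 in collagen and *Dcn* barcodes, where it was below 11 CPM throughout. *Slpi*, a secreted protease inhibitor (chr2:164354070-164389095, minus strand), had 8613, 1574, 1226, 1034 and 1622 CPM, 5.47-fold lower in OVX_E2 (5.08–5.90). Per member its median was 38.5 UMIs per 10000 in OVX with a maximum of 323, and 11.5, 4.22, 3.37 and 9.84 in the other libraries. *Thbs1*, thrombospondin, had 1237, 388, 424, 514 and 825 CPM (3.19-fold lower, 2.71–3.77).

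The named list of lower genes was completed by *Ctsl*, a lysosomal protease, at 1091 CPM in OVX and 306 in OVX_E2, *C4b* of complement at 423 and 116, *Sphk1*, which makes sphingosine phosphate, at 438 and 130, and *Rgs2*, a brake on G protein signals, at 224 and 51.6 CPM. *Tubb2a*, *Zc3hav1* and *Gcnt2* were 4.71-, 4.18- and 4.09-fold lower. The heat shock genes *Hspa1a* and *Hspa1b* were 3.57- and 3.35-fold lower. The 21 immediate early and dissociation stress genes summed to 22764, 13675, 11573, 10868 and 9314 CPM in members and to 21004, 15857, 11836, 12402 and 12956 CPM in collagen and *Dcn* barcodes, so the same list was highest in OVX in both classes. Of 21 tested, *Junb*, *Hspa1a*, *Hspa1b* and *Hsph1* were past 2-fold lower, against 7.78% of all genes.

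Grouped by role, the contractile apparatus had 0 of 15 tested members past 2-fold in OVX_E2 over OVX, against 11.1% of all genes (median log2 ratio -0.19, against -0.09 over all 2185 genes). It also had 0 of 18, 16, 17 and 17 in the other 4 comparisons, where 1.51% to 3.62% of all genes pass. With so few genes tested, a 0 is near the background in each comparison, OVX_E2 over OVX included. *Acta2* had 7267, 7094, 6735, 7278 and 5487 CPM, *Cnn1* 995, 782, 840, 923 and 758, and *Myh11* 646, 569, 503, 606 and 448 CPM. *Oxtr* had 152, 143, 149, 143 and 120 CPM, the lowest value again in OVX_E2_P4_PBDE. *Actg2*, by contrast, was 28.0, 64.9, 59.3, 127 and 67.7 CPM, with OVX below the other libraries, and these counts were low. In the basement membrane list 2 of 9 tested genes were past 2-fold higher, against 3.34% of all genes, and the median log2 ratio was 0.47 against -0.09, with *Col4a1* at 77.7, 190, 324, 361 and 273 CPM (ratio 1.99 after Scrublet) and *Col7a1*, the anchoring fibril collagen, at 37.3, 91.5, 79.6, 130 and 59.9 CPM. No integrin or hemidesmosome gene was past 2-fold (0 of 8, against 11.1% of all genes), which with so few genes is near the background too.

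In the TGF-beta and BMP list 4 of 8 tested genes were past 2-fold lower, against a background of 7.78% for lower genes: *Id3*, *Thbs1*, *Cyr61* and *Ctgf* (median log2 -1.03). *Id3* and *Cyr61* were more abundant in the other OVX barcodes than in members. *Cyr61* (Ccn1), a relative of *Ctgf*, had 385, 126, 174, 182 and 161 CPM, against 677 CPM in the other OVX barcodes. In the cytokine list *Cxcl14*, *Cxcl12* and *Ccl2* were lower of 6 tested, against the same 7.78%, with *Cxcl14* at 3444, 1477, 1489, 1549 and 1294 CPM in members. *Cxcl12* was more abundant in the other OVX barcodes, at 336 CPM against 255 in members, beside the higher fibroblast RNA of OVX members. In the collagen and *Dcn* barcodes *Cxcl14* also stood at 540 CPM in OVX and 90.0 in OVX_E2. Of the EGF, FGF and IGF genes, *Igfbp2* was higher and *Hbegf*, *Igf1r*, *Igfbp4* and *Igfbp6* lower of 10 tested, against 3.34% and 7.78% of all genes. *Sfrp1* and *Dkk3*, secreted modulators of Wnt signals, were lower of 6 Wnt genes, against 7.78%, *Sfrp1* at 246, 78.2, 86.4, 80.3 and 28.6 CPM. Among the transcription factors *Id4* (106 to 284 CPM) and *Tead1* (31.1 to 84.8) were higher and *Sox10* (127 to 46.6) lower of 13, against 3.34% of all genes higher and 7.78% lower, and *Trp63* had 112, 74.9, 84.7, 91.6 and 85.9 CPM.

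Of the 8 tested targets of the progesterone and glucocorticoid receptors, *Sgk1*, *Errfi1*, *Cdkn1a* and *Angptl4* were past 2-fold lower in OVX_E2, against 7.78% of all genes. They encode a kinase, an EGF receptor feedback inhibitor, a cell cycle inhibitor and a lipase inhibitor. *Sgk1* had 541 CPM in OVX and 208 in OVX_E2, and *Errfi1* 1927 and 727. Of 4 tested estrogen response genes, *Myc*, *Igfbp4* and *Cxcl12* were lower, against the same 7.78%, and none was higher, against 3.34%. The receptors themselves were barely captured: *Esr1* had 3.11, 3.33, 3.39, 7.56 and 0 CPM, *Pgr* 9.32, 9.98, 10.2, 8.50 and 15.6 CPM, and none could be tested. In *Prlr* and *Cited1* barcodes *Esr1* had 111 and *Pgr* 115 CPM in OVX. In the interferon and MHC class I list *H2-K1* (737 to 366 CPM) and *H2-D1* (1461 to 571) were lower of 5 tested, against 7.78% of all genes. *H2-K1*, *H2-D1*, *Gstm1*, *Ccl2*, *Igfbp4* and *Igfbp6* were more abundant in the other OVX barcodes than in members, and *Angptl4*, *Hsph1* and *Hmgb2* rested on 1 barcode. Of the Notch list 3 of 14 genes had enough UMIs and of the lipid list 2 of 16. None of these was past 2-fold, where 11.1% of all genes were, so with so few genes both counts are near the background. The median log2 was -0.92 for Notch and -0.29 for lipid genes. Of 7 contraction signal genes *Rgs2* was lower and of 5 xenobiotic response genes *Gstm1*, against 7.78% of all genes, and of 4 basal keratins *Krt15* was higher, against 3.34%. Several of these list members were inside 2-fold under at least 1 alternative, namely *Col4a1*, *Dkk3*, *Igf1r*, *Igfbp4*, *Igfbp6*, *Id3* (0.639 with equal weight per member), *Ccl2*, *Angptl4*, *Myc*, *Junb*, *Hsph1*, *Hmgb2*, *Stmn1* and *H2-K1*.

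Promoters from RefSeq (GRCm38.p6, 250 bases before to 50 after a start site) were found for 13 of 16 genes looked up. They are shown for *Acta2*, a contractile gene that did not pass 2-fold, for *Cyr61*, which was lower in OVX_E2, and for the second start of *Igfbp2*, with the matches to CATTCC (the core of the TEAD motif) or TGANTCA (the AP-1 motif) in capitals. Both strands were searched, GGAATG being CATTCC on the opposite strand, and no matches overlapped in these windows.
Acta2, chr19:34255324-34255623, minus strand: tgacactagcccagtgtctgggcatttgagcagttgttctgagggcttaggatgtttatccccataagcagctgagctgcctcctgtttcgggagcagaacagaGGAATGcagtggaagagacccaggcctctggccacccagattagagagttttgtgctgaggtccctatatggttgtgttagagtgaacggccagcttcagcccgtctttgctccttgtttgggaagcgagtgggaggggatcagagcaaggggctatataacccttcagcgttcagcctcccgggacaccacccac
Cyr61, chr3:145649936-145650235, minus strand: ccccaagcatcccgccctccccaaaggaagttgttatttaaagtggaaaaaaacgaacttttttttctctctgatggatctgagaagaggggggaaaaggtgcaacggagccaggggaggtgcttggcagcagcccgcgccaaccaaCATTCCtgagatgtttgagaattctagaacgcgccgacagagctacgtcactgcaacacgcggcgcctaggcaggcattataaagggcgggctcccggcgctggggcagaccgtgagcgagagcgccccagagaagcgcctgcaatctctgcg
Igfbp2 second start, chr1:72825137-72825436, plus strand: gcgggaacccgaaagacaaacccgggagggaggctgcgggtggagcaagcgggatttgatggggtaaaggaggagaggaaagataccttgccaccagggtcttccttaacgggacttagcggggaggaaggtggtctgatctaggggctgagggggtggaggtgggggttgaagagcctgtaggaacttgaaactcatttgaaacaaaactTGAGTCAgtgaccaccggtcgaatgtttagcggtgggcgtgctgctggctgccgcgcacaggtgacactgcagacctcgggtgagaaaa
The *Acta2* match began 146 bases before its start, that of *Cyr61* 103 and that of *Igfbp2* 39. CATTCC was in 14.7% and TGANTCA in 7.81% of 32817 promoters of the same length, and the full palindrome of the estrogen response element in 0.0701%, with none in these 3. A match is a description of letters, not of binding, and the first start of *Igfbp2* had none of them. The 3 were chosen because they hold a match. Of the other 10 genes *Krt14*, *Mylk* and *Id3* also held CATTCC and *Mylk* and *Lmo1* TGANTCA, while *Krt5*, *Cnn1*, *Oxtr*, *Slpi*, *Nkd1* and *Rgs2* held neither.

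Progesterone was compared without PBDEs (OVX_E2_P4 over OVX_E2) and with them (OVX_E2_P4_PBDE over OVX_E2_PBDE), in libraries that do not overlap. Without PBDEs, *Il17b*, *Cebpb* and *Hspa1b* were higher and *Irf1* and *Socs3* lower. Of 3415 tested genes 59 were past 2-fold (1.73%), 30 higher (0.878%) and 29 lower (0.849%), and with median ratio scaling the split was 44 and 19. With PBDEs, 56 of 2089 were past 2-fold (2.68%), 19 higher (0.910%) and 37 lower (1.77%), and the split was 26 and 33 with median ratio scaling. Of 2088 genes tested in both, 1 was higher in both (0.0479%) and 2 lower in both (0.0958%), while 2, *Il17b* and *Hspa1b*, were higher without and lower with PBDEs.

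*Socs3*, an inhibitor of JAK and STAT signals (chr11:117966079-117970047, minus strand), had 1682, 905, 537, 431 and 242 CPM. *Socs3* was 2.10-fold lower with P4 (1.85–2.38), and under PBDEs its ratio was 0.454. This gene belongs to the immediate early and dissociation stress list. The median log2 of that list was -0.33 without PBDEs and -0.36 with them, against -0.08 and -0.05 over all genes. *Irf1*, an interferon response factor, had 106, 111, 88.1, 39.7 and 39.1 CPM, 2.78-fold lower without PBDEs (1.88–4.24). Both P4 libraries were below the other 3 for both genes. The call was narrow: *Socs3* had a ratio of 0.503 without PBDEs under median ratio scaling and 0.561 with PBDEs under equal weight per member, and *Irf1* one of 0.521 with PBDEs after Scrublet, where its call also rested on 1 barcode. In collagen and *Dcn* barcodes *Socs3* was at 653 CPM in OVX_E2 and 384 in OVX_E2_P4, a ratio of 0.588. In *Prlr* and *Cited1* barcodes the ratio was 1.02. *Plet1*, a surface protein of luminal progenitors, was higher in both, with 43.5, 58.2, 47.4, 133 and 190 CPM, but it was more abundant in the other barcodes, at 652 CPM in OVX_E2_P4_PBDE, and luminal markers were higher beside it. The hormone-sensing luminal (L-Hor) markers summed to 128 CPM in OVX_E2 members, 136 in OVX_E2_PBDE, 209 in OVX_E2_P4 and 286 in OVX_E2_P4_PBDE, and the alveolar luminal (L-Alv) markers to 48.2, 55.9, 166 and 182. These sums include *Prlr*, *Cited1*, *Csn3* and *Spp1*, which the rule keeps low in each member. Of the markers that the rule did not use, *Areg* was at 26.6, 37.3, 41.6 and 44.3 CPM and *Wfdc18* at 8.32, 18.6, 45.3 and 75.5 CPM in the same order, while *Esr1* and *Lalba* were at most 7.56 and 2.60 CPM. The part of luminal RNA in the *Plet1* ratio was not tested. With the *Krt8* and *Krt18* limit the ratio of *Plet1* with PBDEs was 1.73.

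*Cebpb*, a transcription factor of mammary epithelium (chr2:167688915-167690418, plus strand), had 634, 441, 1174, 1169 and 1578 CPM and was 2.64-fold higher in OVX_E2_P4 than in OVX_E2 (2.32–3.04). OVX_E2 was the lowest of the 5 libraries. The same ratio was 3.36 in *Prlr* and *Cited1* barcodes and 3.23 in collagen and *Dcn* barcodes, so it was higher in other classes too. *Pttg1*, a mitotic gene, was 2.99-fold higher (1.64–7.11) with ratio 1.00 once cycling members were left out. *Tmem14c*, *Tnrc6c*, *Ddx46*, *Gm26619*, *1500011B03Rik*, *Lars2*, *Kdm7a* and *Pik3c2a* were 2.17- to 2.67-fold higher, and of these *Tmem14c* (as low as 1.62), *Tnrc6c* (1.81), *Ddx46* (1.99), *Lars2* (1.98) and *Pik3c2a* (1.93) were inside 2-fold under at least 1 alternative. *Sbno2* (3.04-fold), *Kctd1*, *Scamp3*, *Mgll* (a lipase), *Tgif2*, *Dazap1*, *Fam204a*, *Ddx27* and *Pomgnt1* were lower, each on fewer than 50 UMIs in either library. *Mgll* had a ratio of 0.714 with mitochondrial RNA at most 5%, *Scamp3* of 0.530 with the *Krt8* and *Krt18* limit and *Dazap1* of 0.505 with equal weight per member, and *Fam204a* and *Ddx27* were also inside 2-fold under an alternative. *Cxcl12* and *Hsph1* of the lists were higher but rested on 1 barcode. The basement membrane list had a median log2 of 0.39, against -0.08 over all genes, with none of 18 past 2-fold. None of 10 targets of the progesterone and glucocorticoid receptors passed it either, where 1.73% of all genes do, so both counts are near the background.

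With PBDEs, *Id2*, an inhibitor of basic helix-loop-helix factors, had 125 CPM in OVX_E2_PBDE and 23.4 in OVX_E2_P4_PBDE, 4.88-fold lower (2.67–12.2), and 71.5, 108 and 130 CPM in OVX, OVX_E2 and OVX_E2_P4. *Gas1*, a growth arrest and Hedgehog coreceptor gene, had 337 and 130 CPM (2.55-fold lower, 1.89–3.61), with a ratio of 0.509 under equal weight per member. *Krt15* was 2.56-fold (1.54–4.97) and *Sfrp1* 2.82-fold lower (1.55–6.42), on 16 and 11 UMIs. *Gm26917*, a long noncoding gene, was 3.56-fold higher (3.02–4.23), and its ratio was 3.44 and 3.43 in the *Prlr* and *Cited1* and the collagen and *Dcn* barcodes. *Cp*, ceruloplasmin, was 2.99-fold higher (1.67–5.87). None of the 8 tested progesterone and glucocorticoid receptor targets was past 2-fold, where 2.68% of all genes were, so this count is near the background. Their median log2 ratio was 0.63 against -0.05 over all genes. The 15 genes of that list, led by *Mt1* and *Mt2*, summed to 29102, 16668, 15947, 14423 and 26954 CPM, so OVX and OVX_E2_P4_PBDE stood above the rest. In OVX_E2_P4_PBDE over OVX_E2_P4 the median was also 0.63. There 0 of 10 were past 2-fold, near the background of 3.62% of all genes. *Rpl27-ps3*, a pseudogene that can share reads with *Rpl27*, *Dusp7* and *Tpbg* were 2.29-, 2.42- and 2.14-fold higher. *Hspa1a*, *mt-Nd3*, *Fbxo32*, *Slc9a3r2*, *Sdhd* and *Snrpb2* were 2.14- to 2.80-fold lower. Of these, *Dusp7*, *Tpbg*, *Hspa1a*, *mt-Nd3*, *Fbxo32* and *Sdhd* were inside 2-fold under at least 1 alternative. *Egr2*, an early growth response factor, was at 91.5 and 41.7 CPM and rested on 1 barcode.

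**Figure D4:**
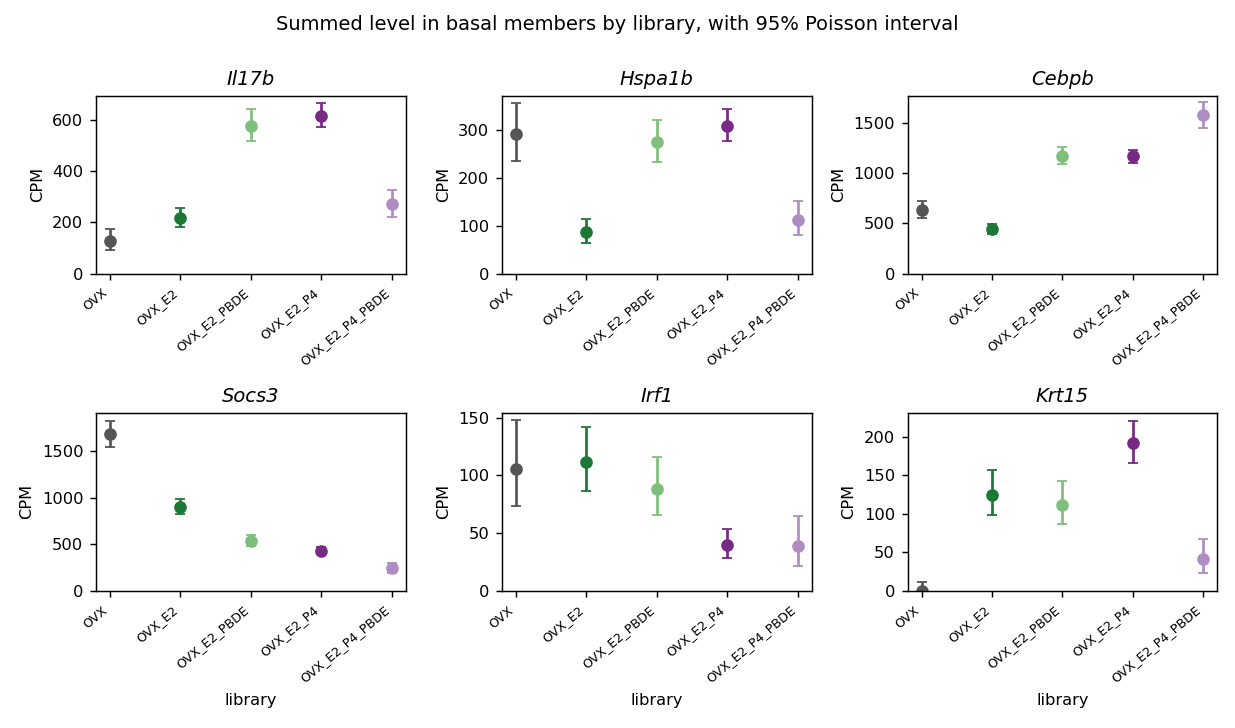
Level in CPM (linear axis from 0) of *Il17b*, *Hspa1b*, *Cebpb*, *Socs3*, *Irf1* and *Krt15* in the basal members by library, with exact 95% Poisson intervals for counting error. *Socs3* is at 905 CPM in OVX_E2 and 431 in OVX_E2_P4, *Cebpb* is lowest in OVX_E2 at 441, and *Il17b* ranges from 127 CPM in OVX to 619 in OVX_E2_P4.

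PBDEs were also compared under E2 alone (OVX_E2_PBDE over OVX_E2) and under E2 with P4 (OVX_E2_P4_PBDE over OVX_E2_P4). The first pair had 39 of 2591 genes past 2-fold (1.51%), 11 higher (0.425%) and 28 lower (1.08%), and 16 and 20 with median ratio scaling. The second had 107 of 2954 (3.62%), 31 higher (1.05%) and 76 lower (2.57%), and 44 and 63 with median ratio scaling. Of 2508 genes tested in both, *Rps27rt* was higher in both and *Hist1h2ap* and *Cbx3* were lower in both. *Cbx3*, a heterochromatin protein, had 146, 195, 72.8, 138 and 46.9 CPM, and its ratio under E2 was 0.515 after Scrublet. In *Prlr* and *Cited1* barcodes its ratio was 0.434 under E2 and 0.779 under E2 with P4. In collagen and *Dcn* barcodes it was 0.585 and 0.707, so *Cbx3* was lower in other classes too. *Hist1h2ap* was above 1 in both pairs, at 1.86 and 2.56, once cycling members were left out. In OVX_E2_P4_PBDE over OVX_E2_P4, *Rps27rt* and *Hist1h2ap* were more abundant in the other barcodes. *Rps27rt*, a ribosomal protein gene copy whose reads can be shared with *Rps27*, was 2.36-fold higher (1.85–3.05) under E2, with ratios of 2.32 and 2.57 in the other 2 classes, and under E2 with P4 its ratio was 1.99 after Scrublet. No xenobiotic response gene passed 2-fold of 4 and 5 tested, *Hmox1*, *Txnrd1*, *Tiparp* and *Gclm* among them. With 1.51% and 3.62% of all genes past 2-fold, both counts are near the background.

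Under E2 alone, genes lower with PBDEs included *Actb*, cytoplasmic actin, at 3492 CPM in OVX_E2 and 1479 in OVX_E2_PBDE (2.36-fold lower, 2.18–2.56), *Sdc4*, a syndecan, at 860 and 335 (2.56-fold, 2.17–3.04), *Spry2*, a feedback inhibitor of receptor tyrosine kinase signals, at 180 and 52.5 (3.35-fold, 2.28–5.28), and *Skil*, a repressor of SMAD signals, at 210 and 76.2 (2.71-fold, 1.94–3.96). In *Prlr* and *Cited1* barcodes the ratio was 0.559 for *Actb*, 0.670 for *Sdc4*, 0.450 for *Spry2* and 0.556 for *Skil*. In collagen and *Dcn* barcodes it was 0.658, 0.628, 0.605 and 0.996, so *Actb*, *Sdc4* and *Spry2* were lower in both classes too. *Pxdc1*, *Rcan1*, *Kdm6b* and *Gm26917* were 2.79-, 2.76-, 2.29- and 2.18-fold lower. *Rcan1* had a ratio of 0.639 with mitochondrial RNA at most 5% and *Kdm6b* of 0.568 at the stricter keratin limit of 16 per 10000. *Cebpb* (2.66-fold, 2.31–3.08), *Il17b*, *Hspa1b* and *Mia* (2.49-fold, 1.48–4.63) were higher, as were *Tnrc6c*, *Ext2* and *Susd6* (2.31-, 2.35- and 2.09-fold), the last 2 of them inside 2-fold under an alternative. *Gm21083* and *2810417H13Rik* were 2.70- and 4.75-fold lower, the latter at a ratio of 0.844 at the stricter keratin limit. *Yap1*, a Hippo pathway cofactor (126 and 61.0 CPM), and *Lgr4*, an R-spondin receptor (125 and 55.9 CPM), were lower but rested on 1 barcode. The comparison with OVX_E2_P4 above used the same OVX_E2 library, so a value peculiar to OVX_E2 enters both.

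Under E2 with P4, *Id2* was 5.04-fold lower with PBDEs (2.85–12.4) and *Krt15* 4.35-fold lower (2.77–8.21), at 130 and 23.4 CPM and at 192 and 41.7 CPM. *Stmn1*, which destabilizes microtubules, *Hmgb2* and *Cks2*, a cell cycle gene, were 3.12-, 2.50- and 3.69-fold lower, beside 14 of 106 cycling members in OVX_E2_P4 and 2 of 34 in OVX_E2_P4_PBDE. *Ube2c*, which drives mitotic protein breakdown, was also lower, at 65.2 and 20.8 CPM, so that 3 of 4 tested proliferation genes were lower, against 2.57% of all genes. Without the cycling members *Stmn1* had a ratio of 0.517 and *Hmgb2* of 0.663. *Ube2c* was then at 3.84, but it is among the genes that chose those members. Each member kept therefore holds fewer than 2 of its UMIs, and this ratio cannot be read as a change. After Scrublet *Ube2c* was at 0.993. *Sfrp1* was lower as well, at 80.3 and 28.6 CPM. So were *Il17b* (619 and 271 CPM, ratio 0.502 with equal weight per member) and *Hspa1b* (309 and 112 CPM, ratio 0.581 with the *Krt8* and *Krt18* limit). *Spon2* (2.92-fold), *Siva1* (2.54-fold) and *Klc3* (3.58-fold) were also lower. *Hspa1a* was 2.48-fold lower, with a ratio of 0.612 under the *Krt8* and *Krt18* limit. *Bmp7*, a BMP ligand (53.8 and 20.8 CPM), and *Egr2* (96.4 and 41.7 CPM) were lower and were inside 2-fold under an alternative. *Xbp1* (26.5 and 62.5 CPM) and *Ccl7* (30.2 and 96.4 CPM) were higher but more abundant in the other barcodes. *Eif3j1*, a translation factor, was 3.03-fold higher (2.03–4.54), *Polr2l*, an RNA polymerase subunit, 2.48-fold (1.98–3.10), *Smad1*, a BMP signal carrier, 2.22-fold (1.46–3.34, ratio 1.81 under equal weight per member) and *Tgfa*, an EGF receptor ligand, 2.26-fold (1.35–3.71), the last on 31 and 38 UMIs. *Wdr43*, *Gm11175*, *Camk2d*, *Rab21*, *Tsix*, *Dusp7*, *Pros1* and *Cebpg* were 2.07- to 3.09-fold higher, of which *Wdr43*, *Dusp7*, *Pros1* and *Cebpg* were inside 2-fold under an alternative. In *Prlr* and *Cited1* and in collagen and *Dcn* barcodes the ratio was 2.84 and 2.83 for *Tsix* and 2.44 and 3.12 for *Gm11175*. It was 1.99 and 1.68 for *Rab21*, 2.00 and 1.89 for *Polr2l* and 1.63 and 1.92 for *Eif3j1*. These genes were thus higher outside the members too, while *Pros1* was at 1.02 and 0.723. The basement membrane list was at a median log2 of -0.43, with *Col7a1* past 2-fold lower of 18 tested (ratio 0.629 with the *Krt8* and *Krt18* limit), near the 2.57% of all genes.

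Within a library, levels spread widely between members. *Mt1*, a metallothionein, had the highest median ratio of variance to mean over the libraries of the 763 genes compared (19.8), followed by *Malat1*, *Slpi* and *Acta2*. *Acta2* medians were 60.8, 70.5, 61.7, 56.2 and 46.4 UMIs per 10000. *Oxtr* was seen in 13 of 49, 15 of 50, 19 of 52, 39 of 106 and 11 of 34 thinned members.

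**Figure D5:**
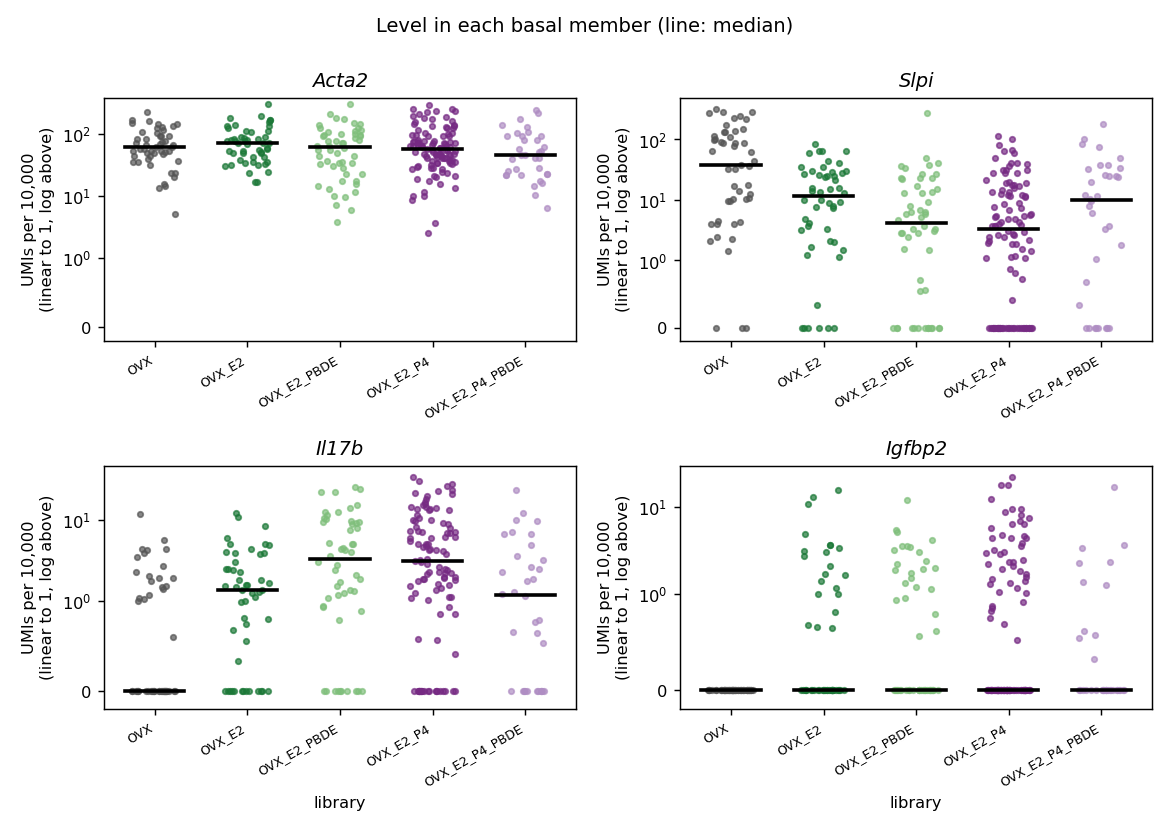
Level of *Acta2*, *Slpi*, *Il17b* and *Igfbp2* in each basal member, in UMIs per 10000 UMIs (axis linear to 1 and log above), by library, with 1 point per barcode and a bar at the median. *Slpi* has a median of 38.5 in OVX and of 3.37 to 11.5 in the other libraries, while *Acta2* medians lie between 46.4 and 70.5.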

How the data were processed

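Whole mammary glands were profiled with 10x Chromium 3′ v2 chemistry. The authors deposited raw UMI counts per gene and barcode, made with Cell Ranger 2.0.0 on mm10 per the submitters' processing notes, in 5 libraries of 19982067 to 42012988 UMIs. A filter of at least 500 genes, 1000 UMIs and at most 10% mitochondrial UMIs keeps all members. Deposited counts were summed over members per library and scaled to CPM. Ratios had 1 UMI added and exact conditional binomial intervals (Python 3.11.15, NumPy 2.4.6, SciPy 1.17.1, pandas 2.3.3), and the counting code was checked on simulated data. Shares of members with a UMI of a gene were taken after thinning each member to 3000 UMIs. For each comparison up to 12 genes past 2-fold in each direction were named by the interval bound nearest 1, leaving out rule genes, *Myl9*, genes more abundant in the other barcodes of the higher library and genes that rest on 1 barcode. Genes past 2-fold in both comparisons of an agent, and members of 19 gene lists past 2-fold, were named besides. Doublets were treated by the rule's limits, with Scrublet (Scanpy 1.11.5) as an alternative. The members, lists and tests were chosen with earlier results of these data known. With 1 library per group no p-value was computed. Alternatives were other limits of the rule, other UMI minimums, equal weight per member and other scalings.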

Additional observations from a re-analysis of the deposited data

Results flagged for a closer look

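*Il17b* and *Hspa1b* moved in opposite directions in the paired comparisons. For progesterone, *Il17b* had a ratio of 2.84 without PBDEs and 0.471 with them, and *Hspa1b* of 3.51 and 0.415. For PBDEs, *Il17b* had a ratio of 2.67 under E2 and 0.441 under E2 with P4, and *Hspa1b* of 3.13 and 0.370. These 2 pairs of ratios rest on the same 4 libraries and are 1 pattern. *Il17b* had 127, 216, 579, 619 and 271 CPM in OVX, OVX_E2, OVX_E2_PBDE, OVX_E2_P4 and OVX_E2_P4_PBDE, so it was highest in the libraries with 1 of the agents. *Hspa1b* had 292, 86.5, 274, 309 and 112 CPM. Over all other barcodes *Hspa1b* had 80.8, 43.0, 78.0, 95.3 and 67.0 CPM, which ranks the libraries in the same order. Its OVX_E2_P4 over OVX_E2 ratio was 1.89 in *Prlr* and *Cited1* barcodes and 2.34 in collagen and *Dcn* barcodes. The *Hspa1b* pattern was thus not particular to the members. The difference between the paired comparisons was not tested, since each group is 1 library. In the progesterone comparison with PBDEs, *Il17b* was no longer past 2-fold without the single OVX_E2_PBDE barcode with the most of its UMIs (10.2% of them), after Scrublet (0.511) or with equal weight per member (0.531), and *Hspa1b* was at 0.507 with equal weight. In the PBDE comparison under E2 with P4, *Il17b* was at 0.502 with equal weight and *Hspa1b* at 0.581 with the *Krt8* and *Krt18* limit.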

How the results depend on the processing

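No paired analysis was possible because each group has 1 library, and no replicate could be left out. The alternatives gave 1385 further values for 154 named ratios, of which 1314 kept their direction and stayed within the counting interval, 63 moved and 8 reversed, and 1239 were still past 2-fold. These totals include 154 values from the alternative that requires 1 UMI of another basal gene. It removed no member, so its values could not differ and say nothing about stability. Counts of genes past 2-fold are given in the order OVX_E2 over OVX, OVX_E2_P4 over OVX_E2, OVX_E2_P4_PBDE over OVX_E2_PBDE, OVX_E2_PBDE over OVX_E2 and OVX_E2_P4_PBDE over OVX_E2_P4. With at least 20 UMIs they were 645, 353, 314, 247 and 474, and with at least 200 UMIs 60, 6, 7, 7 and 12. With equal weight per member the second was 94 and the last 170. With *Krt8* and *Krt18* below 10 per 10000 the third was 32 and the last 61, and with mitochondrial RNA at most 5% the last was 59. Shares of barcodes were 1.05% in OVX_E2_PBDE and 2.74% in OVX_E2_P4 with *Krt14* and *Krt17* at least 16, 1.06%, 0.990% and 1.58% in OVX, OVX_E2_PBDE and OVX_E2_P4 with mitochondrial RNA at most 5%, and 1.06% in OVX and 2.06% in OVX_E2_P4 with the *Krt8* and *Krt18* limit.

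Alternatives added after seeing the data gave 169, 64, 70, 44 and 84 genes without cycling members, 249, 57 and 38 in the comparisons with OVX_E2 without 2 OVX_E2 barcodes of Schwann or fat genes, and 168, 45, 45, 34 and 83 without genes more abundant in other barcodes. Without cycling members the ratio reversed for *Hist1h2ap* (0.991 in OVX_E2 over OVX, 1.86 in OVX_E2_PBDE over OVX_E2, 2.56 in OVX_E2_P4_PBDE over OVX_E2_P4), *Hmgb2* (0.956), *Pttg1* (1.00) and *Ube2c* (3.84). *Hist1h2ap* in OVX_E2_PBDE over OVX_E2 was also 1.26 at the stricter keratin limit and 1.39 after Scrublet. Of these genes only *Ube2c* was used to choose the cycling members left out. For the other genes and the other alternatives the cause was not tested. The 34 to 106 members per library limit genes under 50 UMIs.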

Other observations

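*Mt1* and *Mt2*, metallothioneins that bind zinc and copper and respond to glucocorticoids, had 15942, 9671, 9076, 8330 and 16038 CPM (*Mt1*) and 9054, 5202, 5406, 4649 and 8890 CPM (*Mt2*) in the library order used above. Neither was past 2-fold in a comparison. *Chil1*, a chitinase-like protein, had 469, 291, 342, 319 and 208 CPM, and in OVX_E2_P4 its ratio of variance to mean across members was 18.4.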
